A study of Drosophila melanogaster with 15 samples.

Results

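The genes described here encode proteins of the developing spermatid and the sperm: a testis tubulin, mitochondrial and chromatin proteins, sperm tail proteins, sperm leucyl aminopeptidases, and the comet and cup genes. They were measured by RNA sequencing of filleted Drosophila larvae, a preparation of body wall muscle with its epidermis. The members are 51 of the 15682 gene symbols in the count tables. They are 15 symbols chosen from genes known to act in spermatids and sperm, with earlier results of these same libraries in view, and 36 symbols selected by their names (Mst followed by a number, S-Lap followed by a number, or a letter followed by -cup). No measured value sets a threshold for membership, and because results were known when the list was drawn up, what follows is a description of these genes and no evidence that they stand apart as a class. All 51 matched a gene of the BDGP6 annotation, 2 of them (Mst35Ba and Mst35Bb, now ProtA and ProtB) through an older symbol. Of the 51, 24 lie on chromosome arm 3R, 8 each on 2L, 2R and 3L, 2 on X and 1 on an unplaced scaffold.

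The study compared 5 genotypes with 3 libraries each, all carrying the Mef2-Gal4 driver, which is active in body wall muscle and also in visceral muscle and some brain cells. Mef2>Gsk3CA larvae carried UAS-Gsk3CA, a constitutively active form of the kinase Gsk3 (in flies encoded by sgg), Mef2>Deaf1 larvae carried UAS-Deaf1 to overexpress the transcription factor Deaf1, and both were set against Mef2>+, the driver crossed to w1118. The comparisons of Mef2>Gsk3CA, Mef2>Deaf1 and Mef2>whiteRNAi with Mef2>+ share the same 3 Mef2>+ libraries. Mef2>Deaf1RNAi larvae carried a hairpin against Deaf1 and were set against Mef2>whiteRNAi, with a hairpin against the eye pigment gene white (w). The sex and age of the larvae used for sequencing are not given in the sources used here. Levels are CPM, the counts of a gene relative to the library's total after TMM scaling, and values are listed for replicates 1, 2 and 3 in that order.

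In Drosophila most genes for sperm proteins are transcribed in primary spermatocytes, under regulators such as aly, can and sa, and the messages are stored until the spermatid elongates. The comet and cup genes are a known exception, transcribed after meiosis, with messages that gather at the distal tip of the elongating spermatid. In larvae, spermatocytes are found in the testes, which lie embedded in the fat body.

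The libraries held 16186361 to 32756446 counts on genes. Deaf1 itself stood at 23.9, 23.2 and 21.5 CPM in Mef2>Deaf1RNAi, against 42.9, 43.8 and 38.7 CPM in Mef2>whiteRNAi (edgeR quasi-likelihood test, adjusted p = 0.000903), and w at 14.6, 14.9 and 10.5 CPM in Mef2>whiteRNAi and 40.5, 35.8 and 35.6 CPM in Mef2>+ (adjusted p = 0.000988 in the same test). Deaf1 had 40.6, 41.4 and 47.7 CPM in Mef2>Deaf1 against 35.7, 37 and 31.8 CPM in Mef2>+, which missed the threshold (adjusted p = 0.0581). The Gsk3 gene sgg stood at 339, 335 and 526 CPM in the libraries labelled Mef2>Gsk3CA, against 418, 433 and 254 CPM in Mef2>+, and was not called (adjusted p = 0.779). Replicate 3 of Mef2>Gsk3CA had the highest sgg level of all 15 libraries. Since sgg does not separate these groups, every direction given for Mef2>Gsk3CA is that of the libraries with this label. The genes of body wall muscle were abundant in every library, as the summed levels further on show.

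Sperm genes were concentrated in a few libraries. Summed over all 51 members, the level was 1443, 1561 and 391 CPM in Mef2>Gsk3CA, 77, 72.1 and 191.9 CPM in Mef2>Deaf1 and 93.1, 80.4 and 303 CPM in Mef2>+. The RNAi pair held 83.5, 86.8 and 95.1 CPM in Mef2>Deaf1RNAi, against 75.7, 95.4 and 83.5 CPM in Mef2>whiteRNAi. Outside Mef2>Gsk3CA and replicate 3 of Mef2>Deaf1 and of Mef2>+, most of each sum came from 5 members with at least 10 counts in each of the 15 libraries: m-cup, f-cup, Mst85C, Mst87F and r-cup. Those 5 together reached 132.1, 133.2 and 91.3 CPM in Mef2>Gsk3CA and between 68.5 and 86.9 CPM in the other 12 libraries. More testis tissue in a fillet and more RNA per cell cannot be told apart in such samples.

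The 46 other members were close to undetected in most libraries. Their summed level was 1311, 1428 and 299 CPM in Mef2>Gsk3CA, 4.5, 3.64 and 107.2 CPM in Mef2>Deaf1 and 16.3, 4.25 and 225 CPM in Mef2>+. It was 5.98, 5.54 and 8.22 CPM in Mef2>Deaf1RNAi, against 5.58, 17.2 and 5.26 CPM in Mef2>whiteRNAi. Libraries 1 and 2 of Mef2>Gsk3CA held 86.1% of all counts on these 46 genes, and the 3 Mef2>Gsk3CA libraries together held 92.3%. Within Mef2>+ the highest library was 52.8-fold above the lowest, within Mef2>Deaf1 29.4-fold, and within Mef2>Gsk3CA 4.77-fold, while the 3 Mef2>Deaf1RNAi libraries stayed within 1.48-fold. The mean of Mef2>Gsk3CA, 1013 ± 621 CPM, was 12.4-fold above that of Mef2>+, 81.7 ± 124 CPM (SD, n = 3 libraries each), but the lowest Mef2>Gsk3CA library was only 1.33-fold above the highest Mef2>+ library. The ratio between the highest and lowest library of Mef2>+ was thus larger than the ratio between the means of the 2 genotypes.

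**Figure D1:**
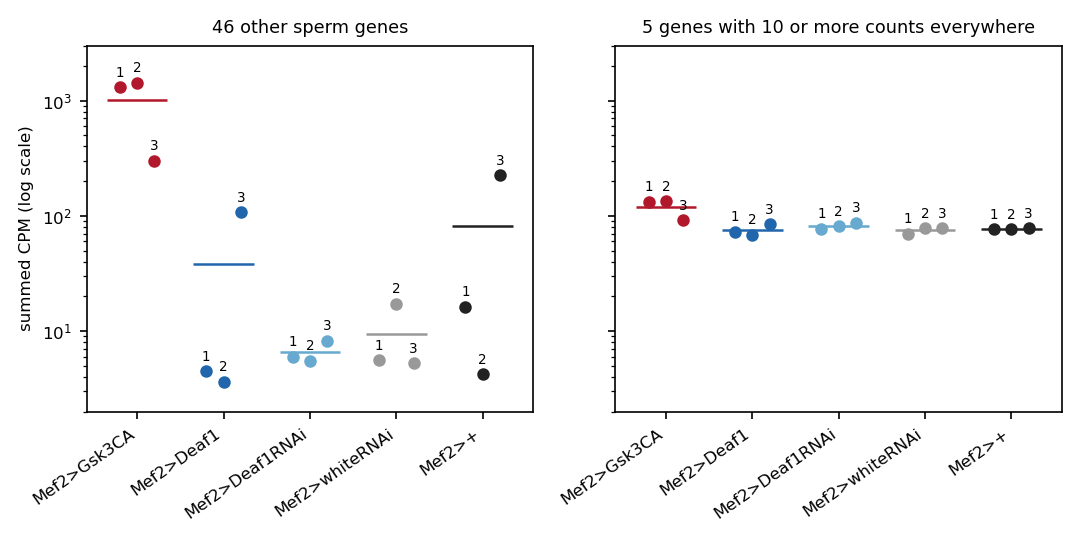
Summed CPM (log scale) of the 46 other members (left) and of the 5 members with at least 10 counts in every library (right), by genotype; each point is 1 library with its replicate number and lines are means of 3 libraries. The 46 genes span 3.64 to 1428 CPM, with replicate 3 of Mef2>Deaf1 and of Mef2>+ far above their own replicates 1 and 2, whereas the 5 genes span 68.5 to 133.2 CPM.

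The same few libraries came first for nearly every gene. Of the 47 members with at least 10 counts in some library, 46 had their highest and second highest CPM in replicates 1 and 2 of Mef2>Gsk3CA. The exception was Mst85C. Replicate 3 of Mef2>Gsk3CA was the third in rank for 37 members, replicate 3 of Mef2>+ the fourth for 32, and replicate 3 of Mef2>Deaf1 the fifth for 34. The remaining 4 members had fewer than 10 counts everywhere. The comet gene swif and Mst57Dc had 0 counts in all 15 libraries, Mst57Db had at most 1 and Mst57Da at most 3. In the BDGP6 annotation swif and the gene cola overlap in their exons on the same strand, so reads from swif could have been left out as ambiguous, and the Mst57D genes are known from the adult male accessory gland.

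**Figure D2:**
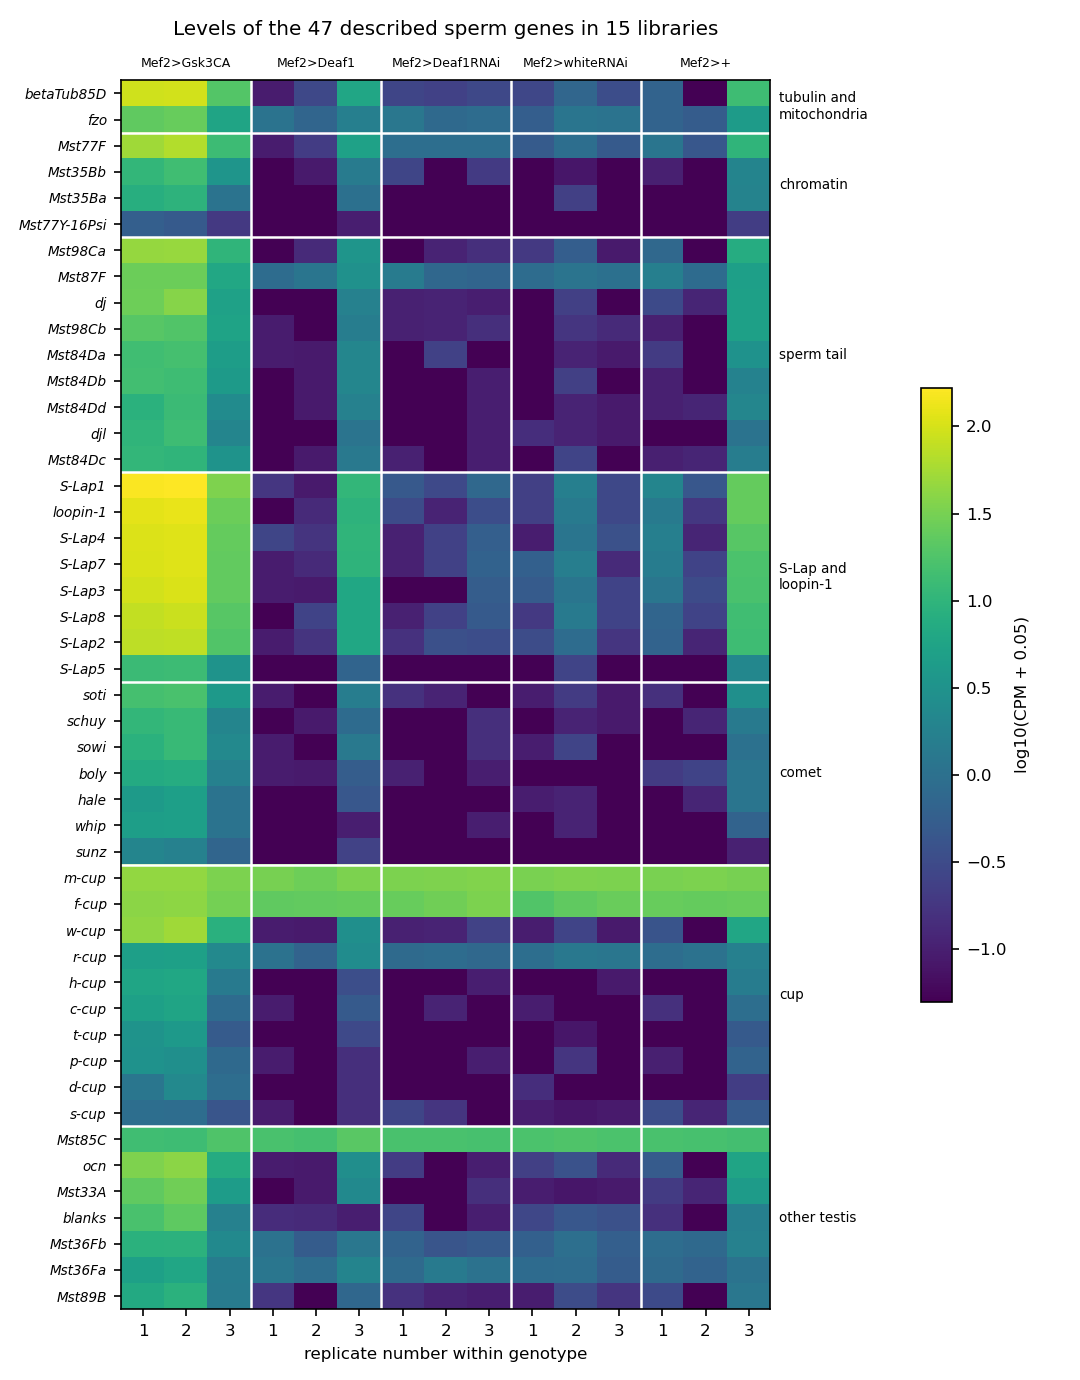
Heat map of log10(CPM + 0.05) for the 47 members with at least 10 counts in some library (rows, grouped by role) in the 15 libraries (columns, grouped by genotype). The bright columns are Mef2>Gsk3CA replicates 1 and 2, then replicate 3 of Mef2>Gsk3CA, Mef2>+ and Mef2>Deaf1; m-cup, f-cup and Mst85C are bright in every column.

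The tubulin and mitochondrial proteins of the spermatid followed this order. betaTub85D is the testis-specific beta-tubulin of the meiotic spindle and the sperm axoneme. betaTub85D stood at 92.7, 95.8 and 18.9 CPM in Mef2>Gsk3CA, 0.0442, 0.243 and 6.09 CPM in Mef2>Deaf1 and 0.614, 0 and 13.6 CPM in Mef2>+. betaTub85D had 0.219, 0.189 and 0.245 CPM in Mef2>Deaf1RNAi, against 0.233, 0.677 and 0.285 CPM in Mef2>whiteRNAi. betaTub85D was thus above 5 CPM in 5 libraries only: the 3 of Mef2>Gsk3CA and replicate 3 of Mef2>Deaf1 and of Mef2>+. fzo encodes the mitofusin that fuses mitochondria into the nebenkern of the early spermatid. fzo stood at 22.9, 25.6 and 5.74 CPM in Mef2>Gsk3CA, 1.06, 0.648 and 1.63 CPM in Mef2>Deaf1 and 0.614, 0.472 and 4.26 CPM in Mef2>+. fzo had 1.21, 0.756 and 0.832 CPM in Mef2>Deaf1RNAi, against 0.512, 1.11 and 1.06 CPM in Mef2>whiteRNAi. Unlike betaTub85D, fzo had at least 7 counts in every library. For both genes the 3 Mef2>Gsk3CA libraries lay above the 3 of Mef2>+.

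Among the sperm chromatin proteins, Mst77F, a linker-histone-like protein of the condensed sperm nucleus, was the most abundant. Mst77F stood at 52.7, 66.2 and 12.9 CPM in Mef2>Gsk3CA, 0.0442, 0.162 and 5.15 CPM in Mef2>Deaf1 and 1.13, 0.405 and 9.97 CPM in Mef2>+. Mst77F had 0.878, 0.882 and 0.881 CPM in Mef2>Deaf1RNAi, against 0.465, 0.892 and 0.448 CPM in Mef2>whiteRNAi. Mst77F was low but present in all 6 libraries of the RNAi pair, with 10 to 29 counts. The protamine-like proteins Mst35Ba and Mst35Bb package sperm DNA. Mst35Bb stood at 10.7, 14 and 3.43 CPM in Mef2>Gsk3CA, 0, 0.0405 and 1.44 CPM in Mef2>Deaf1 and 0.0512, 0 and 1.88 CPM in Mef2>+. Mst35Bb had 0.219, 0 and 0.147 CPM in Mef2>Deaf1RNAi, against 0, 0.0308 and 0 CPM in Mef2>whiteRNAi. The 2 groups Mef2>Gsk3CA and Mef2>+ did not overlap for Mst35Bb, with 3.43 CPM as the lowest and 1.88 CPM as the highest. Mst35Ba stood at 7.95, 9.33 and 1.03 CPM in Mef2>Gsk3CA, 0, 0 and 0.941 CPM in Mef2>Deaf1 and 0, 0 and 1.83 CPM in Mef2>+. Mst35Ba had 0, 0 and 0 CPM in Mef2>Deaf1RNAi, against 0, 0.185 and 0 CPM in Mef2>whiteRNAi. For Mst35Ba, replicate 3 of Mef2>+ was above replicate 3 of Mef2>Gsk3CA, so these groups overlapped. Mst77Y-16Psi, annotated as a pseudogene and named as a Y-linked relative of Mst77F, reached at most 18 counts and was too low to be tested. Its reads can be hard to tell from those of Mst77F, so its values are uncertain.

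The sperm tail proteins are small proteins rich in cysteine, glycine and proline (the Mst84D, Mst87F and Mst98C genes) and the don juan pair dj and djl. Mst98Ca was the highest of the 9. Mst98Ca stood at 46.8, 47.7 and 9.92 CPM in Mef2>Gsk3CA, 0, 0.0809 and 3.42 CPM in Mef2>Deaf1 and 0.716, 0 and 7.53 CPM in Mef2>+. Mst98Ca had 0, 0.063 and 0.0979 CPM in Mef2>Deaf1RNAi, against 0.14, 0.523 and 0.0407 CPM in Mef2>whiteRNAi. Replicate 3 of Mef2>+ and replicate 3 of Mef2>Gsk3CA were close together, and 3 libraries had no Mst98Ca count at all. Mst87F stood at 27.4, 27.3 and 6.35 CPM in Mef2>Gsk3CA, 0.839, 1.13 and 3.02 CPM in Mef2>Deaf1 and 1.64, 0.81 and 4.87 CPM in Mef2>+. Mst87F had 1.43, 0.693 and 0.636 CPM in Mef2>Deaf1RNAi, against 0.837, 1.08 and 0.937 CPM in Mef2>whiteRNAi. Mst87F was the 1 tail gene with at least 10 counts in every library; in BDGP6 its exons overlap the non-coding gene lncRNA:CR43300. dj stood at 27.8, 38.6 and 5.17 CPM in Mef2>Gsk3CA, 0, 0 and 1.73 CPM in Mef2>Deaf1 and 0.256, 0.0675 and 4.93 CPM in Mef2>+. dj had 0.0549, 0.063 and 0.0489 CPM in Mef2>Deaf1RNAi, against 0, 0.185 and 0 CPM in Mef2>whiteRNAi. dj, which encodes a protein of the mitochondria and tail of the sperm, was at 0 counts in 4 libraries. The other 6 genes had 8.97 to 20.3 CPM in replicates 1 and 2 of Mef2>Gsk3CA, 1.97 to 5.55 CPM in its replicate 3, 1.05 to 4.93 CPM in replicate 3 of Mef2>+, and at most 0.215 CPM in every library of the RNAi pair. Mst84Da, Mst84Db, Mst84Dc and Mst84Dd are neighbours on 3R, as are dj and djl and also Mst98Ca and Mst98Cb, and in each of these genes replicates 1 and 2 of Mef2>Gsk3CA were highest and its replicate 3 the third.

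The sperm leucyl aminopeptidases, 7 S-Lap proteins and loopin-1, are among the most abundant proteins of fly sperm and sit in its mitochondrial derivatives. They made up most of the sperm gene counts: 58% of the counts on the 46 members in replicate 1 of Mef2>Gsk3CA, 55.5% in replicate 3 of Mef2>Deaf1 and 58.9% in replicate 3 of Mef2>+. S-Lap1 stood at 159.8, 167 and 35.3 CPM in Mef2>Gsk3CA, 0.132, 0.0405 and 10.9 CPM in Mef2>Deaf1 and 1.94, 0.405 and 24.6 CPM in Mef2>+. S-Lap1 had 0.439, 0.252 and 0.734 CPM in Mef2>Deaf1RNAi, against 0.186, 1.6 and 0.244 CPM in Mef2>whiteRNAi. S-Lap1 had the highest CPM of all 51 members. loopin-1 stood at 121, 126 and 26.8 CPM in Mef2>Gsk3CA, 0, 0.0809 and 9.56 CPM in Mef2>Deaf1 and 1.38, 0.135 and 24.2 CPM in Mef2>+. loopin-1 had 0.274, 0.063 and 0.294 CPM in Mef2>Deaf1RNAi, against 0.186, 1.32 and 0.244 CPM in Mef2>whiteRNAi. S-Lap4 stood at 108, 113 and 24.2 CPM in Mef2>Gsk3CA, 0.221, 0.121 and 10.1 CPM in Mef2>Deaf1 and 1.59, 0.0675 and 20.4 CPM in Mef2>+. S-Lap4 had 0.0549, 0.189 and 0.538 CPM in Mef2>Deaf1RNAi, against 0.0465, 1.11 and 0.326 CPM in Mef2>whiteRNAi. Replicate 3 of Mef2>Gsk3CA lay just above replicate 3 of Mef2>+ for loopin-1 and S-Lap4. The range was wide: S-Lap4 had 1 count in replicate 1 of Mef2>whiteRNAi and 3681 in replicate 1 of Mef2>Gsk3CA. S-Lap5 was the lowest of the 8, at 13.2 CPM at most and 0 counts in 9 libraries. Some S-Lap genes are similar in sequence, so reads may be shared among them or left out where they match more than 1 copy.

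The comet genes had lower levels. soti encodes an inhibitor of the Cullin-3 ubiquitin ligase that acts during sperm individualization. soti stood at 15.1, 16.2 and 4.04 CPM in Mef2>Gsk3CA, 0.0442, 0 and 1.49 CPM in Mef2>Deaf1 and 0.102, 0 and 2.82 CPM in Mef2>+. soti had 0.11, 0.063 and 0 CPM in Mef2>Deaf1RNAi, against 0.0465, 0.154 and 0.0407 CPM in Mef2>whiteRNAi. Outside these same 5 libraries soti never exceeded 0.154 CPM. schuy stood at 10.6, 11.9 and 1.97 CPM in Mef2>Gsk3CA, 0, 0.0405 and 0.792 CPM in Mef2>Deaf1 and 0, 0.0675 and 1.33 CPM in Mef2>+. schuy had 0, 0 and 0.0979 CPM in Mef2>Deaf1RNAi, against 0, 0.0615 and 0.0407 CPM in Mef2>whiteRNAi. sowi stood at 8.97, 11.9 and 2.21 CPM in Mef2>Gsk3CA, 0.0442, 0 and 1.29 CPM in Mef2>Deaf1 and 0, 0 and 0.997 CPM in Mef2>+. sowi had 0, 0 and 0.0979 CPM in Mef2>Deaf1RNAi, against 0.0465, 0.215 and 0 CPM in Mef2>whiteRNAi. Both genes were above 0.5 CPM in the same 5 libraries only. hale, whip, boly and sunz had 1.71 to 7.62 CPM in replicates 1 and 2 of Mef2>Gsk3CA, 0.658 to 1.69 CPM in its replicate 3 and 0.0554 to 1.11 CPM in replicate 3 of Mef2>+. The lowest detected comet gene was sunz, with 67, 53 and 14 counts in Mef2>Gsk3CA and 0, 0 and 1 counts in Mef2>+, a ratio of 81.3 with an exact 95% counting interval of 14.3 to 3233. The interval pools the libraries of each genotype and covers counting error only, so it leaves out the spread between libraries.

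The cup genes fell into 2 patterns. m-cup and f-cup had at least 365 counts in every library, and w-cup followed the other sperm genes. m-cup stood at 45.3, 44.9 and 34.1 CPM in Mef2>Gsk3CA, 31.8, 27.4 and 33.5 CPM in Mef2>Deaf1 and 32.4, 34.1 and 31.4 CPM in Mef2>+. m-cup had 33.8, 34.7 and 35.5 CPM in Mef2>Deaf1RNAi, against 33.2, 34.7 and 33.3 CPM in Mef2>whiteRNAi. m-cup was thus highest in replicates 1 and 2 of Mef2>Gsk3CA, but only slightly above the other libraries. f-cup stood at 40.7, 42.7 and 30.9 CPM in Mef2>Gsk3CA, 22.8, 24 and 24.9 CPM in Mef2>Deaf1 and 25.5, 24.6 and 25.4 CPM in Mef2>+. f-cup had 25.5, 28.5 and 34.2 CPM in Mef2>Deaf1RNAi, against 18.7, 23.3 and 26.2 CPM in Mef2>whiteRNAi. f-cup exons overlap those of ninaB and CG14367 on the opposite strand in BDGP6, and whether the counting used strand is not stated, so part of its counts may belong to these neighbours. The same holds for schuy (Csas), Mst84Da (MstProx), Mst89B (Mat89Ba), S-Lap2 (GAPsec), d-cup (asRNA:CR44235) and h-cup (Rbp), each named with its opposite-strand neighbour. w-cup stood at 43.6, 52 and 8.51 CPM in Mef2>Gsk3CA, 0.0442, 0.0405 and 2.77 CPM in Mef2>Deaf1 and 0.358, 0 and 6.09 CPM in Mef2>+. w-cup had 0.0549, 0.063 and 0.196 CPM in Mef2>Deaf1RNAi, against 0.0465, 0.215 and 0.0407 CPM in Mef2>whiteRNAi. w-cup was at most 0.358 CPM outside the same 5 libraries. r-cup, X-linked like p-cup, had at least 13 counts in every library and 4.76, 5 and 2.26 CPM in Mef2>Gsk3CA against 0.87, 1.01 and 1.66 CPM in Mef2>+. The other 6 cup genes had at most 6.17 CPM in any library.

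The remaining testis genes contained Mst85C, whose highest libraries were not replicates 1 and 2 of Mef2>Gsk3CA. Mst85C stood at 14, 13.3 and 17.6 CPM in Mef2>Gsk3CA, 16.1, 15.3 and 20.7 CPM in Mef2>Deaf1 and 16.5, 15.7 and 15 CPM in Mef2>+. Mst85C had 16.1, 16.4 and 15.9 CPM in Mef2>Deaf1RNAi, against 16.5, 17.8 and 16.6 CPM in Mef2>whiteRNAi. Mst85C was highest in replicate 3 of Mef2>Deaf1 and lowest in replicate 2 of Mef2>Gsk3CA; in BDGP6 its exons overlap those of Nmdmc, an enzyme gene of folate metabolism, on the opposite strand. ocn stood at 34.7, 40.9 and 7.38 CPM in Mef2>Gsk3CA, 0.0442, 0.0405 and 2.72 CPM in Mef2>Deaf1 and 0.46, 0 and 5.7 CPM in Mef2>+. ocn had 0.165, 0 and 0.0489 CPM in Mef2>Deaf1RNAi, against 0.186, 0.338 and 0.0815 CPM in Mef2>whiteRNAi. ocn encodes a testis protein of the janus family and again marked the 5 libraries. Mst33A stood at 23.2, 28.8 and 4.33 CPM in Mef2>Gsk3CA, 0, 0.0405 and 2.33 CPM in Mef2>Deaf1 and 0.153, 0.0675 and 4.26 CPM in Mef2>+. Mst33A had 0, 0 and 0.0979 CPM in Mef2>Deaf1RNAi, against 0.0465, 0.0308 and 0.0407 CPM in Mef2>whiteRNAi. Mst33A behaved like ocn, at 0.153 CPM or below elsewhere. The neighbours Mst36Fa and Mst36Fb had counts in every library and their highest levels in replicates 1 and 2 of Mef2>Gsk3CA. Mst36Fb stood at 8.8, 9.07 and 2.3 CPM in Mef2>Gsk3CA, 1.02, 0.486 and 1.19 CPM in Mef2>Deaf1 and 0.87, 0.742 and 1.72 CPM in Mef2>+. Mst36Fb had 0.603, 0.378 and 0.44 CPM in Mef2>Deaf1RNAi, against 0.558, 0.923 and 0.53 CPM in Mef2>whiteRNAi. For Mst36Fb the 12 libraries outside Mef2>Gsk3CA stayed between 0.378 and 1.72 CPM. Mst36Fa stood at 4.91, 6.07 and 1.46 CPM in Mef2>Gsk3CA, 1.15, 0.85 and 1.88 CPM in Mef2>Deaf1 and 0.767, 0.607 and 1.05 CPM in Mef2>+. Mst36Fa had 0.768, 1.39 and 1.03 CPM in Mef2>Deaf1RNAi, against 0.791, 0.83 and 0.489 CPM in Mef2>whiteRNAi. Mst36Fa had at least 9 counts in every library. blanks encodes a double-stranded RNA binding protein of the male germline. blanks stood at 16.3, 22.5 and 1.74 CPM in Mef2>Gsk3CA, 0.0883, 0.0809 and 0.0495 CPM in Mef2>Deaf1 and 0.102, 0 and 1.61 CPM in Mef2>+. blanks had 0.219, 0 and 0.0489 CPM in Mef2>Deaf1RNAi, against 0.233, 0.4 and 0.326 CPM in Mef2>whiteRNAi. blanks was far lower in replicate 3 of Mef2>Deaf1 than its companions, with 1 count in that library.

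Compared per length, the sperm aminopeptidases were also highest. In replicate 1 of Mef2>Gsk3CA the median level per kilobase of exon was 44.7 CPM per kb for the 8 aminopeptidases, 30 for the tubulin and mitochondrial pair, 29.4 for the 9 tail proteins and 13.7 for the 4 chromatin proteins. It was 9.59 for the 7 other testis genes with counts, 5.53 for the 7 comet genes with counts and 4.1 CPM per kb for the 10 cup genes. These medians hide wide ranges, from 0.401 (s-cup) to 23.3 CPM per kb (w-cup) among the cup genes and from 6.14 (S-Lap5) to 75.3 CPM per kb (S-Lap1) among the aminopeptidases. S-Lap1, loopin-1 (56.7), ocn (56) and S-Lap4 (51.9 CPM per kb) led all members on this scale. Exon lengths are those of BDGP6, while the counts were made on BDGP5.

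Between Mef2>Gsk3CA and Mef2>+, the comparison that asks which genes respond to active Gsk3 in muscle, 44 of the 45 members tested had a positive log2 fold change, with a median of 3.58 beside −0.04 over all 10930 genes tested. The edgeR quasi-likelihood test called 9 members, all higher in the libraries labelled Mef2>Gsk3CA (adjusted p under 0.05), and 39 had an unadjusted p under 0.05; of all genes tested, 5.19% were called higher. The list was drawn up with this comparison known, so nothing is read from the number of members called. Only 19 members reached 10 counts in 3 libraries outside Mef2>Gsk3CA, so most of the 45 entered the test through the libraries where they are high. The 3 Mef2>Gsk3CA libraries lay above all 3 Mef2>+ libraries for 40 of the 45 members tested, and for 16.7% of all genes tested. As most members entered the test through their high libraries, nothing is read from this difference.

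Of the 9 members called, all but blanks and sunz had at least 6 counts in every library. Log2 fold changes were 2.59 for Mst36Fb (standard error 0.55, adjusted p = 0.0129), 2.35 for Mst36Fa (0.52, adjusted p = 0.0149) and 3.05 for Mst87F (0.72, adjusted p = 0.0186). fzo followed with 3.33 (standard error 0.79, adjusted p = 0.0193), f-cup with 0.60 (0.14, adjusted p = 0.0203) and blanks with 4.54 (1.2, adjusted p = 0.0284). r-cup had 1.76 (0.49, adjusted p = 0.0359) and m-cup 0.35 (0.10, adjusted p = 0.0429), and sunz, whose ratio is given above, had adjusted p = 0.036. 

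The 9 members with the highest mean level in Mef2>Gsk3CA, which are betaTub85D, Mst77F and all aminopeptidases but S-Lap5, missed the threshold. None of the 8 aminopeptidases was called, at log2 fold changes of 3.41 to 3.77 and with 7 of 8 at an unadjusted p under 0.05 in edgeR. S-Lap1 differed by 3.74 on the log2 scale, with a standard error of 1.44 and an adjusted p of 0.0931. betaTub85D had 3.85 (standard error 1.38, adjusted p = 0.0783) and Mst77F 3.51 (standard error 1.23, adjusted p = 0.0737). None of the 3 chromatin genes tested was called (2 at an unadjusted p under 0.05), and of the 9 tail genes only Mst87F was. All 9 tail genes had Mef2>Gsk3CA libraries above those of Mef2>+, as did 16.7% of all genes tested, and nothing is read from this count. Standard errors were above 1 on the log2 scale for most members. Mst85C, at −0.07 with a standard error of 0.12, was far from the threshold (adjusted p = 0.739).

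**Figure D3:**
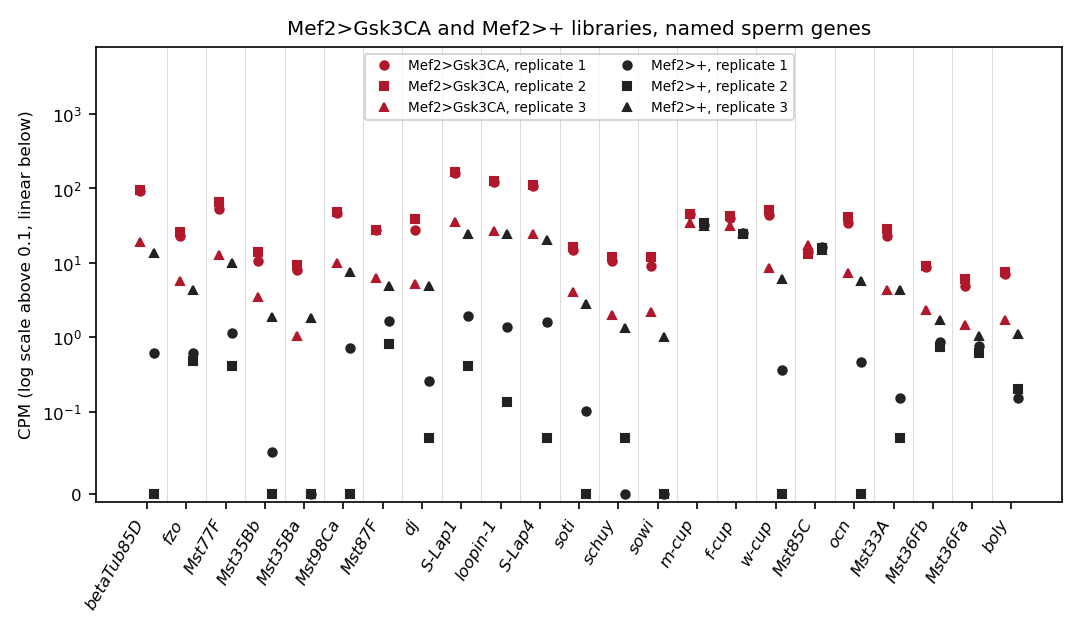
CPM of 23 members (columns; log scale above 0.1, linear below) in the 3 Mef2>Gsk3CA libraries and the 3 Mef2>+ libraries, with a symbol for each replicate number. Replicates 1 and 2 of Mef2>Gsk3CA sit together at the top, as for S-Lap1 at 159.8 and 167 CPM, and for most genes replicate 3 of both genotypes lies between them and replicates 1 and 2 of Mef2>+, unlike m-cup, f-cup and Mst85C.

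The call depended on single libraries, and the share of all genes called in either direction, 14.1% with all libraries, moved as well. Without replicate 3 of Mef2>+ the test called 42 members and 24.5% of all genes, and with Mef2>whiteRNAi as the control in place of Mef2>+ it called 43 members and 32% of all genes. Without replicate 1 or replicate 2 of Mef2>Gsk3CA, or without replicate 1 of Mef2>+, edgeR called 0 members (21, 18 and 15 at an unadjusted p under 0.05), beside 4.1%, 4.02% and 4.94% of all genes. It called 1 member and 7.31% of all genes without replicate 2 of Mef2>+, and 20 members and 21.2% of all genes without replicate 3 of Mef2>Gsk3CA. Without replicates 1 and 2 of Mef2>Gsk3CA together, a setting chosen after the counts were seen, 0 members were called with 0 at an unadjusted p under 0.05, beside 0.818% of all genes. With only the 6 libraries compared 0 members (32 unadjusted) and 0.808% of all genes were called. DESeq2 called 13 members and 18.8% of all genes on all libraries, and limma voom 6 members and 13.5%.

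For Mef2>Deaf1 against Mef2>+, which asks what Deaf1 overexpression changes, no member was called. The median log2 fold change was −0.98 over the 45 members tested and −0.02 over all genes, with 38 negative and 6 positive values among the 44 members above 3 counts in at least 1 library of the pair. edgeR called 0 of 45 members with 0 at an unadjusted p under 0.05, DESeq2 0 with 1 unadjusted, and limma voom 0 with 0 unadjusted. Of all genes, edgeR called 12.4% in either direction, DESeq2 17.9% and limma voom 11.1%. The libraries of the 2 genotypes overlapped for all 51 members, which include swif and Mst57Dc with 0 counts everywhere. The share of all genes that overlapped is not given here, so nothing is read from this count. S-Lap1, at 0.132, 0.0405 and 10.9 CPM in Mef2>Deaf1 against 1.94, 0.405 and 24.6 CPM in Mef2>+, shows the form of most members, with 1 high library in each genotype. Without replicate 3 of Mef2>Deaf1, 25 members had an unadjusted p under 0.05 and edgeR still called 0, beside 6.14% of all genes. Between libraries of the same replicate number, the summed level of the 46 members was lower in Mef2>Deaf1 each time, at 4.5, 3.64 and 107.2 CPM against 16.3, 4.25 and 225 CPM in Mef2>+. The fit with the replicate number as a block called 0 of 45 members, with 0 at an unadjusted p under 0.05, and 9.3% of all genes. Its block is shared by the libraries of all genotypes, so this fit is no paired test of these 2 genotypes alone.

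No member was called for Deaf1 RNAi either. Between Mef2>Deaf1RNAi and Mef2>whiteRNAi edgeR called 0 of 45 members, with 1 (f-cup) at an unadjusted p under 0.05, DESeq2 0 with 1 and limma voom 0 with 1, beside 8.81% of all genes called by edgeR, 15.2% by DESeq2 and 8.11% by limma voom. The median log2 fold change was −0.59 for the members and −0.05 for all genes. Of the 45, 13 had 3 counts or fewer in each of the 6 libraries, and S-Lap5 and Mst35Ba were at 0 in all Mef2>Deaf1RNAi libraries; over the other 32, with these 2 set to 0 because 3 counts per library leave no bound, the median was −0.58. The summed level of the 46 members was at most 8.22 CPM in Mef2>Deaf1RNAi, against a highest value of 17.2 CPM in replicate 2 of Mef2>whiteRNAi, the most deeply sequenced of all libraries. f-cup had 25.5, 28.5 and 34.2 CPM in Mef2>Deaf1RNAi, against 18.7, 23.3 and 26.2 CPM in Mef2>whiteRNAi, which overlapped (0.37 on the log2 scale, standard error 0.14, adjusted p = 0.137).

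The 2 controls differed as well. Between Mef2>whiteRNAi and Mef2>+ edgeR called 1 of 45 members, the comet gene boly, as lower in Mef2>whiteRNAi, where it had 0 counts in all 3 libraries against 3, 3 and 20 counts in Mef2>+. That is at least 4.13-fold lower when each empty library is set to 3 counts (adjusted p = 0.0279), and 10.2% of all genes were called lower. Without replicate 3 of Mef2>+ the bound is 1.51-fold, as the other 2 Mef2>+ libraries hold 3 counts each. In all, 13 members had an unadjusted p under 0.05, and the median log2 fold change was −3.05 beside −0.02 over all genes. Replicate 3 of Mef2>+ stood apart here too: the 46 members summed to 225 CPM there and to 16.3 and 4.25 CPM in its other replicates, against 5.58, 17.2 and 5.26 CPM in Mef2>whiteRNAi. Without replicate 3 of Mef2>+, and also without replicate 1 or 2 of Mef2>whiteRNAi, edgeR called 0 members (1, 2 and 5 at an unadjusted p under 0.05). In these settings 10.5%, 7.09% and 8.8% of all genes were called in either direction, against 16.5% with all libraries. DESeq2 called 3 members and 22.8% of all genes on all libraries, and limma voom 0 members and 15.5%.

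In the Mef2>Gsk3CA libraries and replicate 3 of Mef2>+ the sperm genes stood in similar proportions. They did so less in replicate 3 of Mef2>Deaf1 and replicate 2 of Mef2>whiteRNAi. Over 38 members with at least 100 counts in replicate 1 of Mef2>Gsk3CA (the 5 genes found everywhere left out), the share of each gene in the summed sperm gene counts was set against its share in that library. In replicate 2 of Mef2>Gsk3CA all 38 shares were within 2-fold, from 0.82 (p-cup) to 1.28 times (dj), in replicate 3 of Mef2>Gsk3CA 37, and in replicate 3 of Mef2>+ all 38, from 0.58 (blanks) to 1.56 times (hale). In replicate 3 of Mef2>Deaf1, with 2165 counts on these genes, 33 were within 2-fold, and the ratios ran from 0.037 (blanks) to 4.69 (Mst36Fa). In replicate 2 of Mef2>whiteRNAi, with 560 counts, 23 were within 2-fold, and the ratios ran from 0 (boly) to 12.9 (Mst36Fa). The Pearson correlation of log2 shares across the 38 members, which are not independent, was 0.995 for replicate 2 and 0.981 for replicate 3 of Mef2>Gsk3CA, 0.836 for replicate 3 of Mef2>Deaf1, 0.660 for replicate 2 of Mef2>whiteRNAi and 0.980 for replicate 3 of Mef2>+. The aminopeptidases took between 52.5% and 58.9% of the counts in each of these 6 libraries.

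A few genes departed from the common proportions. blanks was 1.24% of the sperm gene counts in replicate 1 of Mef2>Gsk3CA (exact binomial 95% interval 1.14 to 1.35), 1.58% in replicate 2 and 0.581% in replicate 3 (0.409 to 0.8). It was 0.0462% in replicate 3 of Mef2>Deaf1 (0.00117 to 0.257, 1 count of 2165) and 0.715% in replicate 3 of Mef2>+ (0.479 to 1.03). whip, a comet gene, was 0.352% in replicate 1 of Mef2>Gsk3CA (0.3 to 0.412) and 0.0462% in replicate 3 of Mef2>Deaf1, also from 1 count. Mst36Fa, which had counts in every library, took 0.375% in replicate 1 of Mef2>Gsk3CA, 1.76% in replicate 3 of Mef2>Deaf1 and 4.82% in replicate 2 of Mef2>whiteRNAi. These intervals cover counting error only, and blanks, whip and Mst36Fa were picked after their values were seen.

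**Figure D4:**
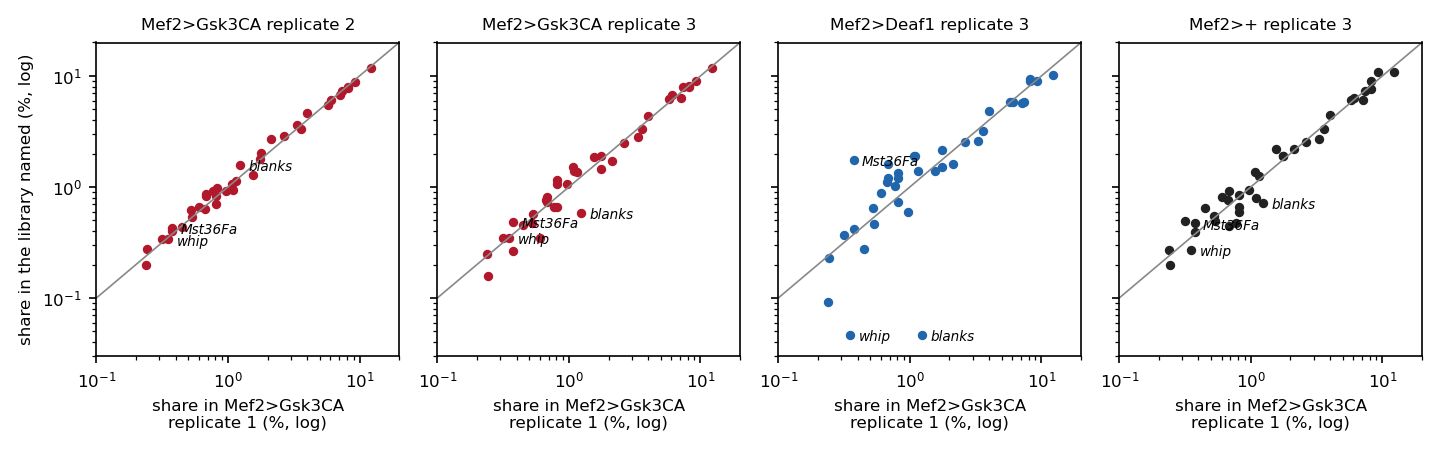
Share of each of 38 members in the summed sperm gene counts of 4 libraries (vertical axes, %, log scale) against its share in replicate 1 of Mef2>Gsk3CA (horizontal axes, %, log scale); each point is a gene and the line marks equal shares. Points follow the line, with blanks and whip far below it in replicate 3 of Mef2>Deaf1 (0.0462% each) and Mst36Fa above it.

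Genes of other stages and tissues were summed over the same libraries. Regulators of primary spermatocytes (16 genes found) had 186.2, 201 and 73.6 CPM in Mef2>Gsk3CA, 64, 60.7 and 57 CPM in Mef2>Deaf1 and 61.5, 60.9 and 96 CPM in Mef2>+, and 55.3 to 73 CPM in the RNAi pair. This sum is carried by genes also used elsewhere, such as bol and CycB, and the defining regulators were lower. aly had 3.3, 3.29 and 0.188 CPM in Mef2>Gsk3CA, 0 in all of Mef2>Deaf1 and 0, 0 and 0.166 CPM in Mef2>+. can had 5.26, 6.07 and 0.564 CPM in Mef2>Gsk3CA, 0.132, 0.0405 and 0.0991 CPM in Mef2>Deaf1 and 0.0512, 0.202 and 0.775 CPM in Mef2>+. As a share of the counts on the 46 members, aly was 0.0628% in replicate 3 of Mef2>Gsk3CA (exact binomial 95% interval 0.0171 to 0.161) and 0.252% in replicate 1 (0.208 to 0.303), whereas topi was 0.33% (0.204 to 0.504) and 0.366% (0.312 to 0.426). All of the 7 regulators set beside the sperm genes in this way had a lower share in replicate 3 than in replicate 1. The intervals were apart for 2 (aly and can) and overlapped for 5 (comr, nht, sa, tomb and topi), and they cover counting error only. These 7 are only a part of the 16 genes found. The sum over all 16, carried by genes also used elsewhere, went the other way. It was 14.2% of the counts on the 46 members in replicate 1 of Mef2>Gsk3CA and 24.6% in replicate 3. Of 11 regulators tested, 2 (vis and twe) were called higher in Mef2>Gsk3CA against Mef2>+ and none lower. Of all genes, 5.19% were called higher and 8.87% lower. The list was chosen with earlier results known, so nothing is read from this count.

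Male germline and sex markers were present to different degrees. The 9 genes of germline stem cells and spermatogonia had 20.5, 23.9 and 8.74 CPM in Mef2>Gsk3CA, 6.14, 5.5 and 8.32 CPM in Mef2>Deaf1 and 5.83, 5.06 and 7.2 CPM in Mef2>+. Of 6 tested, 2 (bgcn and aub) were called higher in Mef2>Gsk3CA against Mef2>+, beside 5.19% of all genes. Nothing is read from this count either. The 12 Y-linked fertility genes had 12.2, 17.5 and 4.51 CPM in Mef2>Gsk3CA, 1.41, 1.82 and 2.13 CPM in Mef2>Deaf1 and 1.59, 1.69 and 3.1 CPM in Mef2>+, with most counts outside Mef2>Gsk3CA on FDY, which is close in sequence to an autosomal gene. Of the 12, 11 were at 0 in replicate 2 of Mef2>+. The dosage compensation genes roX1, roX2 and msl-2, active in males, summed to 254, 287 and 185 CPM in Mef2>Gsk3CA, 451, 149 and 221 CPM in Mef2>Deaf1 and 354, 349.7 and 293 CPM in Mef2>+, and to 131.7 to 285 CPM in the RNAi pair. None was called in any of the 4 comparisons by edgeR (0 at an unadjusted p under 0.05), beside 8.81% to 16.5% of all genes. Their sum ran from 185 to 293 CPM in the 5 libraries rich in sperm genes and from 131.7 to 451 CPM in the other 10. Somatic cells of the testis (5 markers of cyst and hub cells, several of them expressed in other tissues) did not follow the sperm genes, at 127.5, 127.5 and 117.7 CPM in Mef2>Gsk3CA and 131.3, 122.8 and 158 CPM in Mef2>+, and tj, the most specific of them, had 0.585, 0.484 and 0.047 CPM in Mef2>Gsk3CA and 0, 0 and 0.0554 CPM in Mef2>+, and reached 0.605 CPM in replicate 1 of Mef2>whiteRNAi, where sperm genes were low. The 12 accessory gland genes summed to at most 1.84 CPM.

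Fat body and muscle markers varied too. The 6 fat body genes summed to 6152, 6308 and 1004 CPM in Mef2>Gsk3CA, 6745, 3413 and 6067 CPM in Mef2>Deaf1 and 2745, 2516 and 6875 CPM in Mef2>+, and to 2784 to 10583 CPM in the RNAi pair. Within Mef2>Gsk3CA and within Mef2>+ the libraries high in sperm genes were also high in fat body genes. Within Mef2>Deaf1 the fat body sum was highest in replicate 1 (6745 CPM), where sperm genes were low, and was 6067 CPM in replicate 3. Replicate 3 of Mef2>Gsk3CA had less fat body signal than any other library, and Mef2>whiteRNAi had the most with few sperm genes. The 12 muscle genes summed to 61753, 62530.1 and 45145 CPM in Mef2>Gsk3CA and 77279, 72157 and 107999 CPM in Mef2>+. The muscle sum was 22405.5 to 32143 CPM in Mef2>Deaf1 and 18476 to 74724 CPM in the RNAi pair. The part of testis, fat body or sex of the larvae in the sperm gene levels was not tested.

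**Figure D5:**
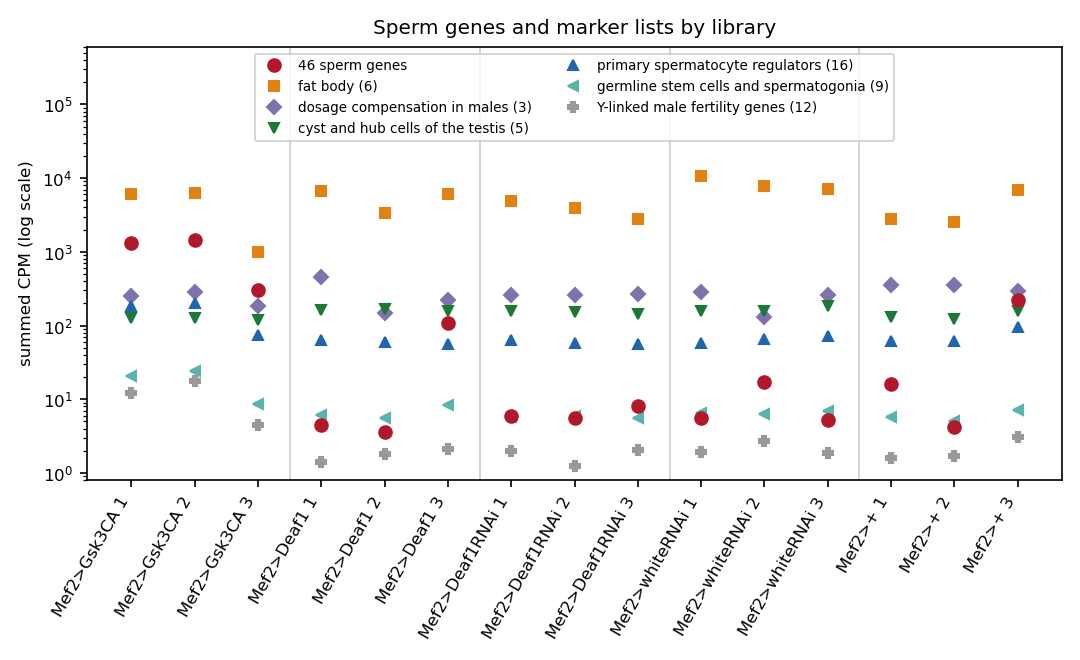
Summed CPM (log scale) of the 46 sperm genes and of 6 marker lists in the 15 libraries, with the number of genes of each list in the legend. The sperm genes span 3.64 to 1428 CPM; spermatocyte, germline and Y-linked lists are highest in replicates 1 and 2 of Mef2>Gsk3CA, and the dosage compensation list stays between 131.7 and 451 CPM.

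Most other sperm genes outside the list had similar values. Of 20 further genes found (among them testis proteasome subunits, the HMG-box protein genes tHMG1 and tHMG2, janB and the testis Gsk3 relative gskt), 16 were tested, with a median log2 fold change of 3.5 for Mef2>Gsk3CA against Mef2>+. Of these 16, edgeR called 0, with 13 at an unadjusted p under 0.05, beside 14.1% of all genes called in either direction. The gene CG12214 (mlt) was an exception, at 35.7, 33.4 and 32.2 CPM in Mef2>Gsk3CA and 29.5, 31.4 and 27.7 CPM in Mef2>+ (log2 fold change 0.19, adjusted p = 0.293), and at 25 to 41 CPM over all 15 libraries. gskt had 13.6, 14.2 and 2.77 CPM in Mef2>Gsk3CA, 0.0442, 0.0809 and 1.14 CPM in Mef2>Deaf1 and 0.0512, 0.0675 and 1.72 CPM in Mef2>+. The genes outside the list whose log2 CPM most resembled the summed level of the 46 members over the 15 libraries were CG5017, CG18109, CG15086, CG4218 and CR17567 (Pearson r of 0.996 each), followed by CG6441, CG7251, CG31740, CG3330 and CG12861 (r of 0.995 to 0.996). In all, 846 of 10885 genes that are no members had r above 0.95. The points share libraries, which differ in depth.

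The members differed among themselves in how closely they followed the rest. The correlation of log2 CPM with the summed level of the other members was 0.996 for w-cup, 0.994 for S-Lap2 and 0.994 for dj, and at least 0.92 for all but 6 of the 47. These were Mst36Fa (0.82), s-cup (0.85), blanks (0.87), f-cup (0.70), m-cup (0.68) and Mst85C (−0.29). Apart from s-cup and blanks, they are genes with counts in every library.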

How the data were processed

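RNA from filleted larvae was sequenced by the authors (TruSeq stranded mRNA, paired reads), mapped with STAR to BDGP5 and counted per gene with HTSeq, and the submitters' notes name CASAVA 1.7. The deposited values are unnormalized counts per gene symbol, 1 table per library. The strand and overlap settings of the counting are not given in the sources used here. Rows that name no gene stayed out of library sizes. Reads without a feature were 3.36% to 3.87% of the total in Mef2>+ and 5.30% to 6.75% in the other genotypes.

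Groups and replicate numbers come from the genotype labels. The members and all gene lists were chosen with earlier results of these data known. Symbols were matched to BDGP6 (15369 of 15682 matched). TMM factors, filterByExpr (10930 genes kept, 45 of 51 members) and the two-sided quasi-likelihood test of edgeR 4.0.16 in R 4.3.3 were applied to all 15 libraries with a mean per genotype, and p-values were adjusted by Benjamini-Hochberg over all genes tested, with 0.05 as the threshold. The script was tested on simulated data. Alternatives used DESeq2 1.42.0, limma 3.58.1 voom, other scaling, filters, priors and libraries, a replicate block, and leaving out each library. The study names TMM factors with limma voom. The same replicate numbers deviated together between Mef2>Deaf1 and Mef2>+ (correlations of 0.304, 0.242 and 0.478 for replicates 1, 2 and 3). A fit with a replicate block is therefore also given for this comparison. Its block is shared by all genotypes, so it does not pair these 2 alone. The pairing comes from the data and not from the labels, and the sperm-rich replicate 3 of both genotypes is part of those data. The values printed are from the fit without the block unless the block is named. Replicates of 1 genotype differed beyond sampling noise (median chi-square per gene of 0.869 to 15.9, against 0.455 for 2 draws of 1 library), so each was counted as a sample; the study calls them biological replicates.

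Values in every library are printed for the 3 members with the highest mean CPM in each role group and for up to 5 called members per comparison; other members are given by range. Any further gene was named after its values were seen. Similarity over libraries is the Pearson correlation of log2 CPM (prior count 2). No sequence is printed, since no sequence table was used here.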

Additional observations from a re-analysis of the deposited data

How the results depend on the processing

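For Mef2>Gsk3CA against Mef2>+, 9 members were called, 9 with RLE scaling, 8 without a filter, 9 with a robust prior, 13 with DESeq2 and 6 with limma voom. Of all genes, these alternatives called 11.9%, 9.88%, 14%, 18.8% and 13.5% in the same order. The count moved further with at least 10 counts asked in every library (4 of 5 tested, and 12.1% of all genes) and with the 6 libraries compared alone (0, and 0.808% of all genes). It also moved with Mef2>whiteRNAi as control (43, and 32% of all genes) and without replicates 1 and 2 of Mef2>Gsk3CA (0, and 0.818% of all genes, a setting chosen after seeing the data). The reported fit called 14.1% of all genes. Leaving out each library in turn gave 0 to 42. For Mef2>whiteRNAi against Mef2>+ the 1 call became 0 with at least 10 counts in every library, with the 6 libraries alone and with limma voom, and 3 with DESeq2, and leaving out each library gave 0 to 1. Of all genes, 22.6% were called with at least 10 counts in every library and 7.09% with the 6 libraries alone. The shares were 15.5% with limma voom and 22.8% with DESeq2. For Mef2>Deaf1 against Mef2>+ and Mef2>Deaf1RNAi against Mef2>whiteRNAi 0 members were called in every setting tried. The replicate block gave 7, 0, 0 and 1 calls for Mef2>Gsk3CA, Mef2>Deaf1, Mef2>Deaf1RNAi and Mef2>whiteRNAi against their controls. Of all genes it called 8.84%, 9.3%, 5.48% and 12.1% in the same order. Same-numbered libraries of Mef2>Gsk3CA and Mef2>+ had a mean correlation of −0.663, those of Mef2>Deaf1RNAi and Mef2>whiteRNAi −0.102 and those of Mef2>whiteRNAi and Mef2>+ 0.124. In none of the 3 did every library correlate best with its own number, so these were not treated as pairs. Between Mef2>Gsk3CA and Mef2>+ the values were −0.563, −0.649 and −0.776 for replicates 1, 2 and 3. Libraries of the same number thus deviated in opposite directions there. The cause of these moves was not tested beyond the fewer genes or samples that each setting has. The mean summed CPM of all members was 38.5 in Mef2>Deaf1, 6.58 in Mef2>Deaf1RNAi and 9.35 in Mef2>whiteRNAi without the 5 members found in every library (added after seeing the data), and 80.1 in Mef2>Deaf1RNAi when scaled by library totals, against 88.5 with TMM factors. Of 89 values for the 6 members named by their adjusted p, 52 kept their side of the threshold, 37 lost it and none changed sign. At the few counts per library that most members have outside 5 libraries, levels carry a large counting error, and small changes were not detectable.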
